A study of Mus musculus with 9 samples.

Results

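The genes described here supply amino acids to the cell or belong to the integrated stress response (ISR). They are 32 genes chosen by symbol, 6 transcription factors and regulators, 4 effectors that act on translation, glutathione or growth signalling, 9 enzymes of amino acid synthesis, 7 amino acid transporters and 6 aminoacyl-tRNA synthetases, among the 24391 genes that the tables list. All 32 were counted in enough reads to be tested, as were 11981 genes in all. RNA was sequenced from mouse CD8+ T cells, the cytotoxic arm of the T cell lineage. The cells had been activated for 72 h without treatment (NT, 5 libraries) or with an inhibitor of the histone demethylase LSD1 (LSD1i, 4 libraries), and both groups were kept in medium with serum, glutamine, β-mercaptoethanol and interleukin 2 at 100 U/mL. Neither the inhibitor nor the strain, genotype and age of the mice is named in the sources used here.

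The ISR is a shared answer to several kinds of stress. Kinases that sense uncharged tRNA, misfolded protein in the endoplasmic reticulum, double-stranded RNA or lack of heme phosphorylate the initiation factor eIF2α, which lowers translation in general while letting the mRNA of the transcription factor ATF4 be translated more. ATF4 then raises genes for amino acid synthesis, uptake and tRNA charging, and activated T cells, which grow and divide quickly, depend on these genes for growth. Because ATF4 is controlled largely through translation, its mRNA level is not a measure of its protein.

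ATF4 and C/EBP proteins bind a composite element whose core reads TGATGNAA. In the 250 bases before the transcription start in the RefSeq promoter table (GRCm38.p6), both strands searched, 8 of the 27 genes with an entry held this core, or 29.6%, against 3.91% of all 27025 genes in the table and 3.45% of its 32851 windows. The 8 were Atf3, Nupr1, Chac1, Asns, Pycr1, Slc7a11, Aars and Gars. The genes were chosen for amino acid supply or the ISR, in which ATF4 raises such genes. A higher share than among all genes can therefore follow from the choice and is no separate result. Eif4ebp1, Slc7a5, Slc1a5, Wars and Nars have no entry in the table. The stretches below, from 6 of the genes, are shown because they place the core in members whose values are described further on. They run 5′ to 3′ along the strand of the gene, with capitals marking the core in either orientation. Those of Nupr1 and Asns are cut to 30 bases because the longer stretch overlapped an annotated exon, as did that of Aars, which is not shown.
Nupr1 (chr7:126625562-126625591, minus strand): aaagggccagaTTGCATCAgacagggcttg
Chac1 (chr2:119351023-119351082, plus strand): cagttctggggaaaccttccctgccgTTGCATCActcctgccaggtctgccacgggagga
Atf3 (chr1:191183410-191183469, minus strand): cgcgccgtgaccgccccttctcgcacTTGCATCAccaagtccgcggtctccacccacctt
Asns (chr6:7693214-7693243, minus strand): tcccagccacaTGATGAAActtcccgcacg
Pycr1 (chr11:120643818-120643877, minus strand): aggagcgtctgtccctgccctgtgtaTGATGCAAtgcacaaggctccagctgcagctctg
Slc7a11 (chr3:50443627-50443705, minus strand): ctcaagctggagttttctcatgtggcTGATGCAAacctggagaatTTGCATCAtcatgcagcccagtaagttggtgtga
Atf3, Nupr1 and Chac1 carry the core on the opposite strand, and Slc7a11 holds it 2 times, once in each orientation. A match of these letters is a description and shows no binding.

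Library totals ran from 15163983 to 29245278 raw reads. The raw and the batch-corrected table give opposite group names to 4 of the 9 libraries, NT 1, NT 2, LSD1i 1 and LSD1i 2, and the labels do not say which names are right. Names and directions below are those of the batch-corrected table unless the raw names are mentioned, and under the raw names the fold changes within replicates 1 and 2 would have the opposite sign. Rn45s, the ribosomal RNA precursor, took 13.3% of the raw reads in NT 1 and 1.66% to 2.87% in the other 8 libraries. The correction separated replicates 1 and 2 from replicates 3 to 5. Kdm1a, which encodes LSD1, ranged over 104 to 139 CPM in NT and 112 to 126 in LSD1i (−0.07 ± 0.09, edgeR adjusted p = 0.818), and blocking the enzyme need not alter its mRNA. All 13 T cell identity genes found in the tables were tested, with Cd3e at a mean of 57.8 CPM and Cd8a at 373 CPM in NT. Of 29 markers of B, myeloid, CD4, NK, erythroid, epithelial and stromal cells, 24 were too low to test and summed to 0.923 to 1.72 CPM per NT library and 0.938 to 1.79 CPM per LSD1i library. Of the 29, 7 were at 0 in every library. The 5 that could be tested, Zbtb7b, Pecam1, Cd68, Epcam and Gata1, brought the sum to 78.1 to 101 CPM in NT and 96.4 to 126 CPM in LSD1i, and their part in the results below was not tested.

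No gene of the 32 was called different between LSD1i and NT, against 3.31% of the 11981 tested genes (edgeR's quasi-likelihood test, Benjamini-Hochberg adjusted p under 0.05 over all tested genes). DESeq2 called 1, Nupr1, against 4.85% of the 13518 genes for which it gave an adjusted p. An unadjusted p under 0.05 was reached by 8 of the 32 in edgeR (1 regulator, Nupr1, 3 effectors, 1 enzyme, 3 transporters and 0 synthetases) and by 14.6% of all tested genes. The fold changes leaned to the lower side: 28 of 32 were below 0 against 54.4% of all tested genes, with a median log2 fold change of −0.16 against −0.02. For 30 of the 32 genes the 95% interval of the fold change, not adjusted for the number of genes, lay within 2-fold in either direction, and for 24 it lay within 1.5-fold. The exceptions at 2-fold were Nupr1 and Slc7a11, whose lower bound was −1.01. In batch-corrected CPM only Sesn2 had groups that did not overlap, lower in LSD1i, as did 3.46% of all tested genes. In the other direction 0 of the 32 had groups apart, against 4.41%. In bulk RNA, a change in the share of cells that express a gene and a change in RNA per cell cannot be told apart.

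**Figure D1:**
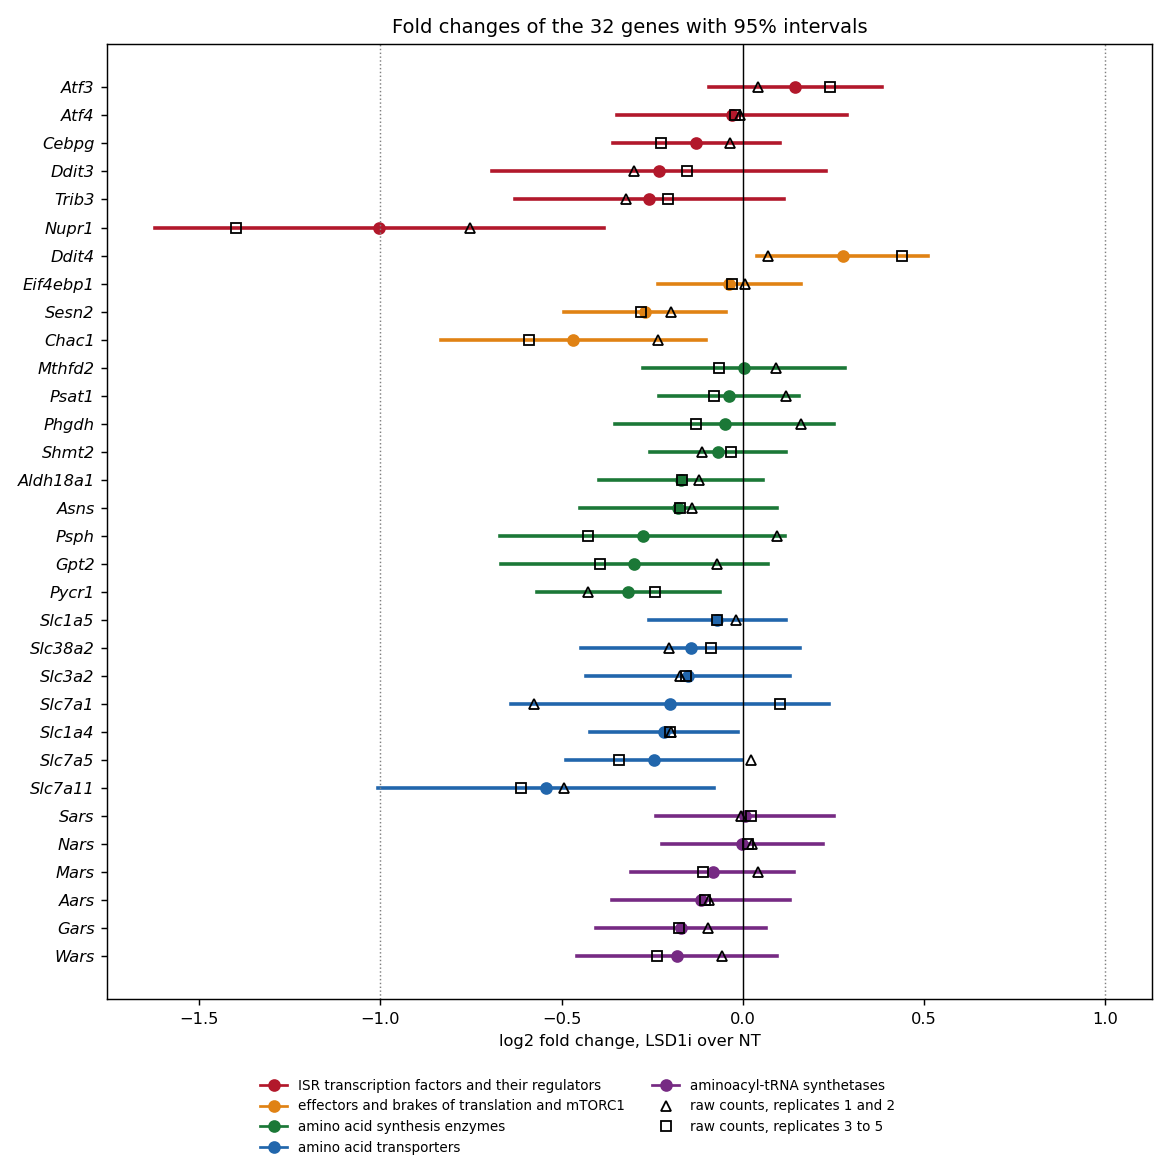
Log2 fold change of LSD1i over NT for each of the 32 genes, grouped and coloured by role. Filled points and lines are the estimate and its 95% interval in the batch-corrected table, and open triangles and squares are the estimates from raw counts in replicates 1 and 2 and in replicates 3 to 5 alone. The points of 28 genes lie left of 0, and Nupr1 lies farthest from it at −1.00.

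Scaled to the length of the main transcript (GENCODE M21, an approximation, since the sources used here do not give the gene models that were counted), the levels in NT spanned from 423 ± 85.9 CPM per kb (SD, n = 5) for Atf4 to 0.671 ± 0.167 for Slc7a11, and these ends of the range were the same in LSD1i, at 415 ± 38.0 and 0.458 ± 0.110 (n = 4). Ddit4 was next to Atf4 with 314 ± 32.7 CPM per kb in NT, followed by Gars with 274 ± 36.0, and the spread of these neighbours overlapped. The serine synthesis enzymes Phgdh (194 ± 24.0) and Psat1 (189 ± 12.9) and asparagine synthetase Asns (182 ± 30.8) lay within each other's spread. At the low end, Nupr1 stood at 13.8 ± 5.27, Sesn2 at 12.4 ± 1.60 and Pycr1 at 4.43 ± 0.528 CPM per kb in NT.

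Of the 6 transcription factors and regulators, 0 were called and 5 had fold changes below 0. Atf4, the central activator, had 636, 821, 786, 886 and 522 CPM across NT 1 to NT 5, and 646, 794, 740.3 and 681 CPM across LSD1i 1 to LSD1i 4. The NT libraries spanned a wider range than the LSD1i libraries and enclosed all of them, and the log2 fold change was −0.03 ± 0.14 (SE, adjusted p = 0.96, 95% interval −0.35 to 0.29). Ddit3, which encodes CHOP, a factor of prolonged stress and apoptosis, had 75.3, 119.8, 105, 122 and 57.0 CPM across NT 1 to NT 5, and 86.4, 70.3, 97.4 and 72.4 CPM across LSD1i 1 to LSD1i 4. Here too the LSD1i values lay inside the NT range (−0.23 ± 0.21, adjusted p = 0.717). Trib3, a pseudokinase that ATF4 induces and that damps ATF4 signalling, had 80.6, 113, 95.9, 122 and 64.1 CPM across NT 1 to NT 5, and 68.9, 86.2, 86.0 and 77.0 CPM across LSD1i 1 to LSD1i 4 (−0.26 ± 0.17, adjusted p = 0.57).

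Nupr1, a small chromatin-associated stress protein, showed the largest shift of the 32. It had 7.78, 12.6, 12.9, 17.4 and 6.59 CPM across NT 1 to NT 5, and 4.80, 7.89, 5.27 and 4.77 CPM across LSD1i 1 to LSD1i 4. LSD1i 1, LSD1i 3 and LSD1i 4 lay below every NT library, while LSD1i 2 lay within the lower part of the NT range, between NT 1 and NT 2. The means went from 11.5 ± 4.37 CPM in NT (SD, n = 5) to 5.68 ± 1.49 in LSD1i (n = 4), which is −1.00 ± 0.28 on the log2 scale and missed the threshold in edgeR (adjusted p = 0.0878, 95% interval −1.62 to −0.38). DESeq2 called it (−1.01 ± 0.28, adjusted p = 0.0118), and edgeR did so without NT 1 (adjusted p = 0.0446) or without NT 5 (0.0318). NT 1 is the library with 13.3% Rn45s reads, whose part in the result was not tested. Leaving out each library in turn gave adjusted p-values from 0.0318 to 0.248 and log2 fold changes from −1.20 to −0.80. The gene rests on few reads, 58 to 136 raw reads in the LSD1i libraries and 117 to 514 in the NT libraries. In the authors' deposited table its log2 fold change was −1.00 with an FDR of 0.0812, and 0 of the 32 genes were under 0.05 there, against 1.92% of the 20052 genes it lists. Atf3 (0.15 ± 0.11), a stress-induced repressor, and Cebpg (−0.13 ± 0.10), the C/EBP partner of ATF4, did not pass.

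**Figure D2:**
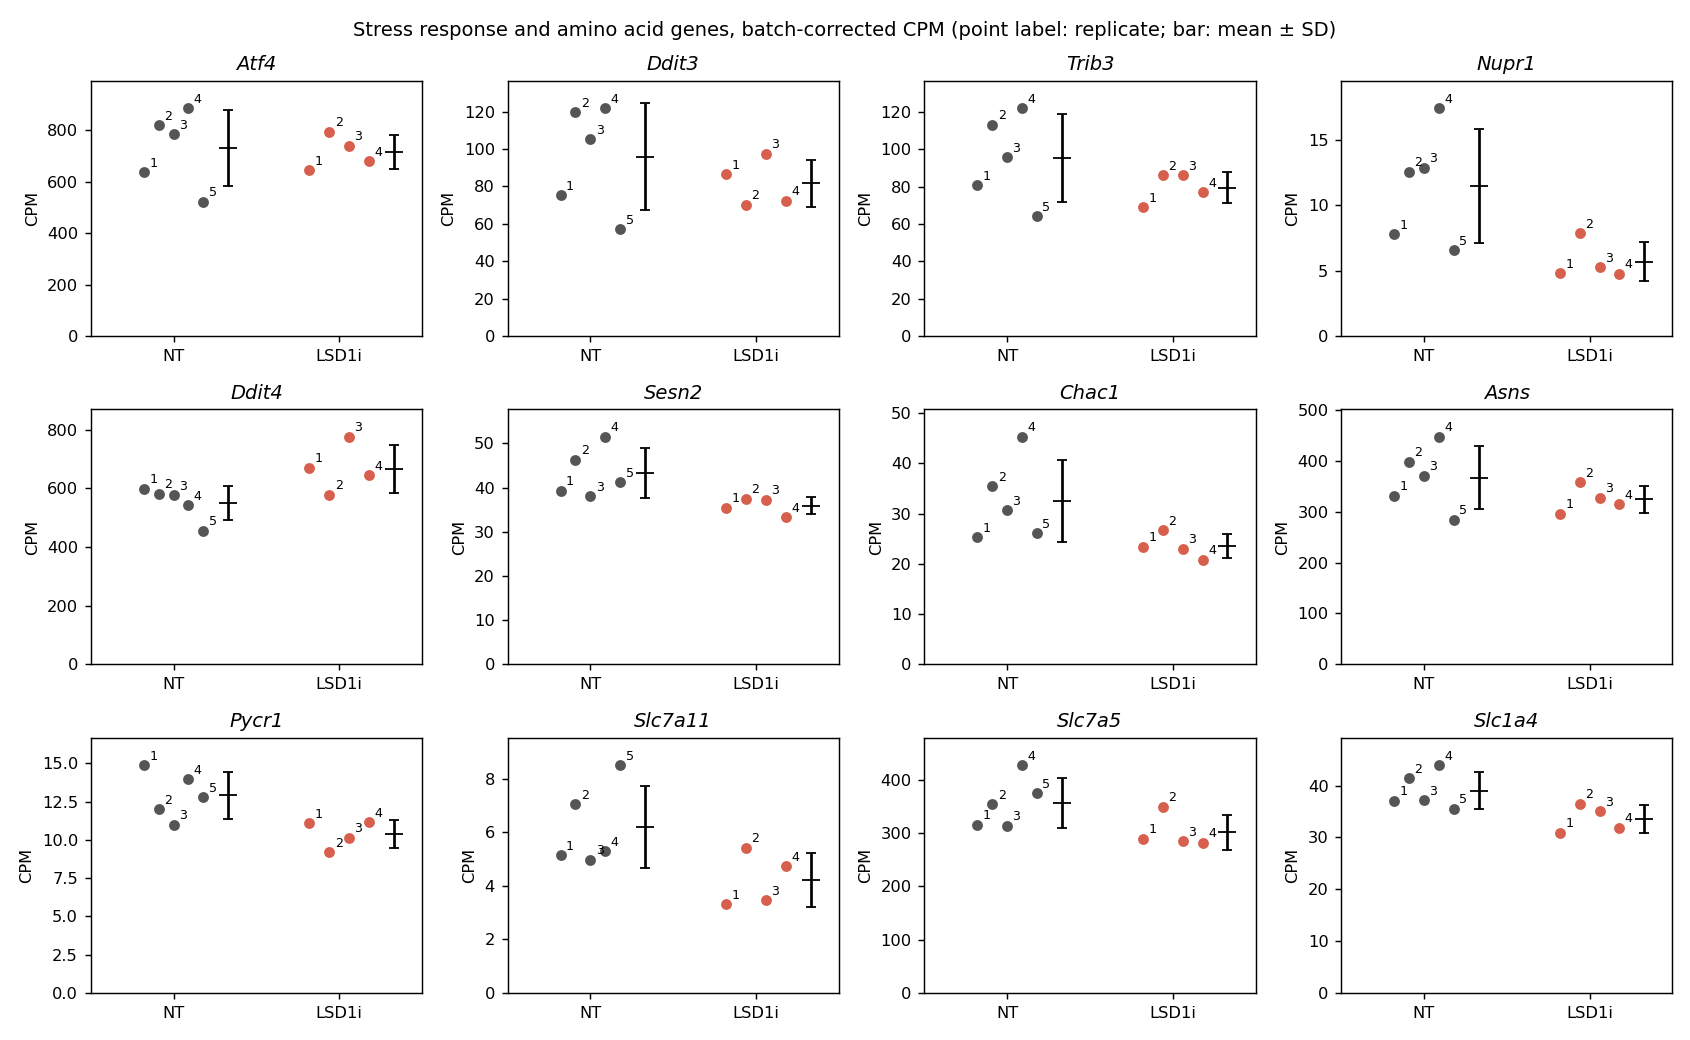
Batch-corrected CPM of 12 of the genes in each library, with a panel per gene, NT at the left and LSD1i at the right of each panel, axes starting at 0, points labelled by replicate number and black bars giving mean ± SD. Nupr1 has 3 LSD1i libraries under 6 CPM, and the groups do not overlap for Sesn2.

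Among the effectors, 0 of 4 were called. Chac1, an ATF4 target that degrades glutathione, had 25.4, 35.5, 30.6, 45.3 and 26.1 CPM across NT 1 to NT 5, and 23.5, 26.7, 23.1 and 20.8 CPM across LSD1i 1 to LSD1i 4. NT 4 stood above the rest, and LSD1i 2 was the only LSD1i library inside the NT range (−0.47 ± 0.17, adjusted p = 0.199). Sesn2, a leucine sensor that holds back mTORC1, had 39.3, 46.3, 38.0, 51.5 and 41.2 CPM across NT 1 to NT 5, and 35.5, 37.5, 37.2 and 33.3 CPM across LSD1i 1 to LSD1i 4. Every LSD1i value lay below the lowest NT value, NT 3, by a narrow margin in LSD1i 2, and the log2 fold change of −0.27 ± 0.10 did not pass (adjusted p = 0.231). In raw CPM the groups were not apart in replicates 1 and 2, where LSD1i 2 (52.0) exceeded NT 1 (49.9). In replicates 3 to 5, LSD1i 3 and LSD1i 4 (27.2 and 25.5) lay below NT 3, NT 4 and NT 5 (30.1, 35.6 and 31.0). Ddit4, also known as REDD1, an mTORC1 inhibitor named here after its value was seen, leaned the other way, from 551 ± 57.5 CPM in NT (SD, n = 5) to 667 ± 82.1 in LSD1i (n = 4) (0.28 ± 0.11, adjusted p = 0.248). Eif4ebp1, the translation repressor 4E-BP1, was at 150.0 to 199 CPM in NT and 167 to 179.9 in LSD1i (−0.04 ± 0.09, adjusted p = 0.918).

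The 9 enzymes of amino acid synthesis had 0 calls, 8 fold changes below 0 and a median of −0.17. Pycr1, which makes proline in mitochondria, had 14.9, 12.0, 11.0, 14.0 and 12.8 CPM across NT 1 to NT 5, and 11.1, 9.18, 10.1 and 11.1 CPM across LSD1i 1 to LSD1i 4. The groups met only between NT 3 and LSD1i 1 and LSD1i 4 (−0.32 ± 0.12, adjusted p = 0.211). Gpt2, which makes alanine, had 63.2, 83.7, 81.3, 101 and 60.3 CPM across NT 1 to NT 5, and 57.6, 76.5, 69.2 and 50.3 CPM across LSD1i 1 to LSD1i 4 (−0.30 ± 0.17, adjusted p = 0.474). Asns, which makes asparagine and is a standard readout of ATF4, had 331, 398, 370.3, 447 and 284 CPM across NT 1 to NT 5, and 295, 358, 328 and 314 CPM across LSD1i 1 to LSD1i 4. All 4 LSD1i values lay between those of NT 5 and NT 3 (−0.18 ± 0.12, adjusted p = 0.607, 95% interval −0.45 to 0.10). The serine and one-carbon enzymes Phgdh (−0.05 ± 0.14), Psat1 (−0.04 ± 0.09), Psph (−0.28 ± 0.18), Shmt2 (−0.07 ± 0.09) and Mthfd2 (0.00 ± 0.13) and the proline enzyme Aldh18a1 (−0.17 ± 0.10) did not pass. Shmt2 and Psat1 had the narrowest intervals of these, −0.26 to 0.12 and −0.23 to 0.15.

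All 7 amino acid transporters had fold changes below 0 and 0 were called, with a median of −0.20. Slc7a11, the cystine importer xCT, was low, with 5.15, 7.05, 4.97, 5.28 and 8.50 CPM across NT 1 to NT 5, and 3.31, 5.42, 3.45 and 4.72 CPM across LSD1i 1 to LSD1i 4. LSD1i 1, LSD1i 3 and LSD1i 4 were below every NT library and LSD1i 2 was not (−0.54 ± 0.21, adjusted p = 0.247, 95% interval −1.01 to −0.08). The gene rests on 51 to 169 raw reads per library. Slc7a5, the catalytic chain of the leucine transporter LAT1, had 315, 355, 314, 427 and 375 CPM across NT 1 to NT 5, and 289.7, 349.6, 284 and 282 CPM across LSD1i 1 to LSD1i 4. LSD1i 1, LSD1i 3 and LSD1i 4 lay below all NT libraries, while LSD1i 2 lay between NT 1 and NT 2 (−0.25 ± 0.11, adjusted p = 0.337). Its partner chain Slc3a2, also called CD98, ranged over 244 to 378 CPM in NT and 263 to 313 in LSD1i (−0.15 ± 0.13, adjusted p = 0.698). Slc1a4, a carrier of small neutral amino acids, went from 39.0 ± 3.51 CPM in NT (SD, n = 5) to 33.6 ± 2.63 in LSD1i (n = 4) (−0.22 ± 0.09, adjusted p = 0.303). The glutamine transporter Slc1a5 (−0.07 ± 0.09), the neutral amino acid transporter Slc38a2 (−0.14 ± 0.14) and the arginine transporter Slc7a1 (−0.20 ± 0.20) did not pass either. Slc7a1 was highest in NT 1, at 354 CPM against 162 to 281 CPM in the other NT libraries, and its log2 fold change was −0.03 without NT 1, the library with 13.3% Rn45s reads.

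The 6 aminoacyl-tRNA synthetases, which load tRNAs with their amino acids, had 0 calls and a median of −0.10. Gars, the glycine enzyme, had 615, 676, 645, 779.5 and 546 CPM across NT 1 to NT 5, and 532, 646, 571 and 571 CPM across LSD1i 1 to LSD1i 4 (−0.17 ± 0.11, adjusted p = 0.538). NT 4 was highest, LSD1i 1 was below every NT library, and the other 3 LSD1i libraries lay within the NT range. Wars, the tryptophan enzyme, which interferon also induces, ranged over 119 to 164 CPM in NT and 100.0 to 139.8 in LSD1i (−0.18 ± 0.13, adjusted p = 0.606). Nars (0.00 ± 0.10) and Sars (0.01 ± 0.11), for asparagine and serine, had the fold changes closest to 0 among the 6, and Aars (−0.11 ± 0.11) and Mars (−0.08 ± 0.10), for alanine and methionine, did not pass.

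The extremes of these genes were often held by the same NT libraries. NT 4 held the highest batch-corrected value of the 9 libraries for 20 of the 32 genes, and NT 5 the lowest for 15. The share of all genes with their extremes in these libraries is not given. NT 4 exceeded NT 5 in 27 of the 32 genes, against 48.2% of all genes. The pair was picked for these extremes, so that the count of 27 restates the choice. The ratio was 2.13 for Ddit3, 2.65 for Nupr1, 1.90 for Trib3, 1.74 for Chac1, 1.70 for Atf4 and 1.57 for Asns. Psph and Slc7a11 went the other way, with ratios of 0.607 and 0.622, as did Wars (0.766), Slc1a5 (0.884) and Psat1 (0.983). Averaged over the 32 genes, the log2 deviation from the mean of the 9 libraries was −0.04, 0.17, 0.08, 0.26 and −0.12 across NT 1 to NT 5, against −0.17, 0.03, −0.08 and −0.13 across LSD1i 1 to LSD1i 4, so the groups overlapped. Of the 22 genes with a log2 fold change over 0.1 in size, 8 had one smaller by over 1.5 times without NT 4, among them Trib3 (−0.15), Ddit3 (−0.13), Gpt2 (−0.19), Asns (−0.10) and Gars (−0.10). Without NT 5, 3 of the 22 were smaller and 4 larger by over 1.5 times. The median log2 fold change of the 32 genes was −0.10 without NT 4 and −0.19 without NT 5, against −0.16 with all libraries. For the transcription factors and regulators alone the mean deviation ran from −0.38 in NT 5 to 0.47 in NT 4. The coefficient of variation was larger in NT than in LSD1i for 26 of the 32 genes, against 69.2% of all tested genes, and its median was 13.6% in NT and 10.0% in LSD1i, against 14.4% and 11.4% for all tested genes.

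**Figure D3:**
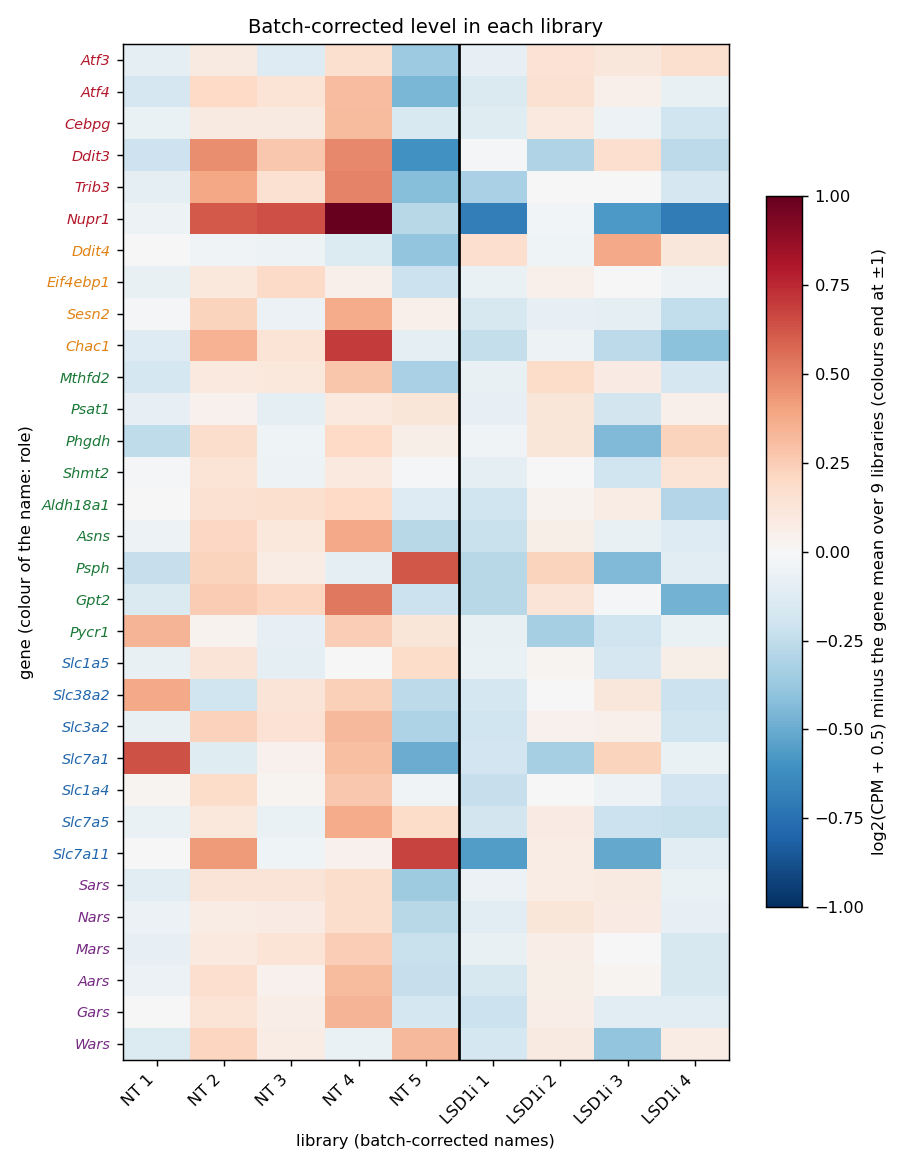
Level of each of the 32 genes (rows, name coloured by role) in each library (columns, NT left of the black line and LSD1i right of it), as log2(batch-corrected CPM + 0.5) minus the gene's mean over the 9 libraries. Red is higher and blue lower, NT 4 is the reddest column for most genes, and NT 5 is blue for Atf4, Ddit3 and Trib3 but red for Psph and Slc7a11.

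With raw counts under the names of the corrected table, replicates 1 and 2 gave fold changes below 0 for 22 of the 32 genes (median −0.08) and replicates 3 to 5 for 27 (median −0.15). Each set alone called 0 of the 32, against 0.0676% and 0.969% of all genes in edgeR, with 1 and 5 of the 32 at an unadjusted p under 0.05. Here, with the set term and with the raw names, the share of all genes at an unadjusted p under 0.05 is not given. Both sets were below 0 for 20 genes, or 62.5%, against 25.6% of all genes tested in both, and both were above 0 for 3. With 22 and 27 of the 32 below 0 in the separate sets, a high joint count follows and is no separate result. Nupr1 had −0.75 in replicates 1 and 2 and −1.40 in replicates 3 to 5, Chac1 −0.23 in replicates 1 and 2 and −0.59 in replicates 3 to 5, and Slc7a11 −0.49 in replicates 1 and 2 and −0.61 in replicates 3 to 5. Slc7a5 had 0.02 in replicates 1 and 2 and −0.34 in replicates 3 to 5, and Slc7a1 −0.58 in replicates 1 and 2 and 0.10 in replicates 3 to 5. The difference between the sets in the response to LSD1i was tested as an interaction in edgeR. It was called for 0 of the 32 genes and 0.00% of all genes, an unadjusted p under 0.05 was reached by 0 of the 32 and 4.88% of all, and no other tool was run for it. With the set as a term in the raw counts, 25 of the 32 were below 0 (median −0.14) and 0 were called, against 1.85% of all genes, with 6 at an unadjusted p under 0.05. With the names of the raw table and no set term, 21 were below 0, 0 were called, as were 0.00% of all genes, and 0 reached an unadjusted p under 0.05. The median was then −0.02, and 11 of the 32 genes had the opposite sign from the batch-corrected table, among them Sesn2 (0.08) and Pycr1 (0.16), while Nupr1 was at −0.92 (adjusted p = 0.999).

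More of these genes were called between the sets of replicates than between the groups, as for all tested genes (38.7% and 3.31%). In raw counts with treatment as a term, 16 of the 32 genes differed between replicates 3 to 5 and replicates 1 and 2, against 38.7% of all tested genes. Of these, 5 were higher in replicates 3 to 5 (18.4% of all genes) and 11 were lower (20.4% of all genes). The labels name no batch, both groups are in both sets, and the sets are those that the authors' correction separates, so a difference in culture and a difference in library preparation cannot be told apart. Rpph1, an RNA component gene, took 0.297% to 0.476% of the raw reads in replicates 1 and 2 and 2.83% to 3.09% in replicates 3 to 5, and its part in these differences was not tested.

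The called genes of the roles split between the directions, against 18.4% of all genes higher in replicates 3 to 5 and 20.4% lower. Lists of related genes, described further on, did not all do the same. The 14 other cytosolic synthetases had 2 higher and 1 lower, and 19 other ATF4 and CHOP related genes had 3 and 3. The 20 other amino acid transporters had 1 higher and 10 lower, and 30 other one-carbon, glutamine, proline and methionine enzymes had 1 and 14. Of the 6 transcription factors and regulators, 4 were higher in replicates 3 to 5 and 0 were lower. Ddit3 had 57.6, 59.7, 48.9 and 47.6 raw CPM in NT 1, NT 2, LSD1i 1 and LSD1i 2, against 153, 189.7, 66.0, 146 and 96.7 in NT 3, NT 4, NT 5, LSD1i 3 and LSD1i 4. All 5 libraries of the second set exceeded all 4 of the first, though NT 5 only narrowly (1.27 ± 0.26 on the log2 scale, edgeR adjusted p = 0.00381). Nupr1 (1.25 ± 0.32, adjusted p = 0.0117), Atf3 (0.65 ± 0.12, adjusted p = 0.00237) and Cebpg (0.59 ± 0.12, adjusted p = 0.00307) were higher too, and Atf4 (0.20 ± 0.14, adjusted p = 0.287) and Trib3 (0.14 ± 0.19, adjusted p = 0.603) did not pass. The transporters had 3 genes lower and 0 higher. Slc7a5 had 468, 575, 476 and 595 raw CPM in NT 1, NT 2, LSD1i 1 and LSD1i 2, against 219, 259.8, 238, 188 and 186 in NT 3, NT 4, NT 5, LSD1i 3 and LSD1i 4. The sets did not overlap (−1.30 ± 0.12, edgeR adjusted p = 5.35e-05), as in 15.6% of all tested genes in this direction and 14.5% in the other, and Slc1a5 (−0.91 ± 0.09, adjusted p = 9.10e-05) and Slc1a4 (−0.76 ± 0.10, adjusted p = 0.000376) were lower as well. Its partner Slc3a2 was not called (−0.05 ± 0.15, adjusted p = 0.813). Among the enzymes 4 of 9 were lower and 0 higher, Shmt2 (−0.93 ± 0.09), Pycr1 (−0.54 ± 0.13), Aldh18a1 (−0.50 ± 0.10) and Phgdh (−0.43 ± 0.14), while Asns (−0.01 ± 0.12, adjusted p = 0.953) and Psat1 (−0.02 ± 0.10) were not called. Of the synthetases 3 of 6 were lower, Wars (−0.61 ± 0.13), Aars (−0.43 ± 0.11) and Gars (−0.33 ± 0.10), and of the effectors Sesn2 was lower (−0.89 ± 0.11) and Ddit4 higher (0.45 ± 0.11). With the 5 NT libraries only, 6 of the 32 were called, 1 higher and 5 lower, against 12.7% of all tested genes.

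**Figure D4:**
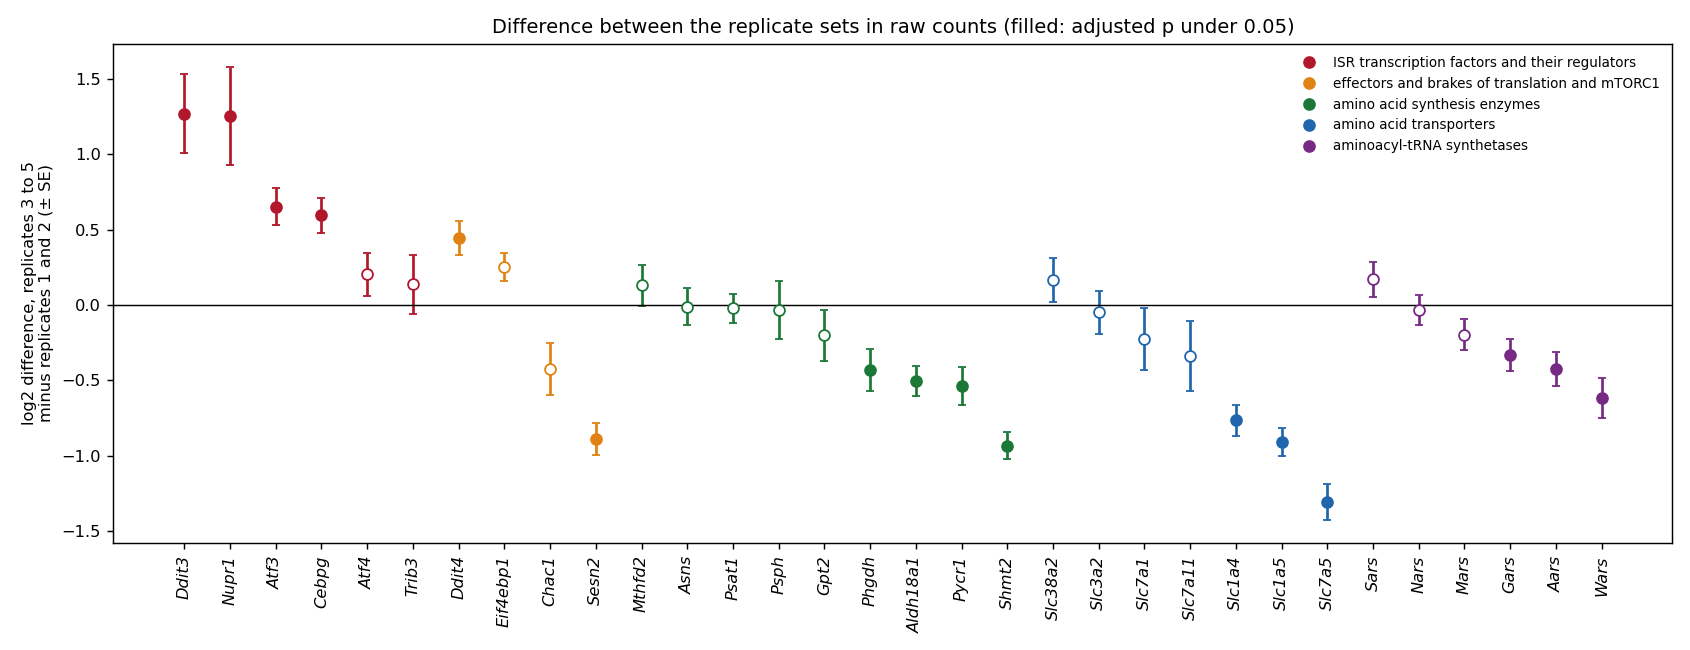
Log2 difference between replicates 3 to 5 and replicates 1 and 2 in raw counts for each of the 32 genes, with treatment as a term, error bars ± SE and colours by role. Filled points have an adjusted p under 0.05. The filled points of the transcription factors and regulators lie above 0, and those of the enzymes, transporters and synthetases below it.

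Other genes of the pathway were read from lists beside the 32. Of 16 genes for eIF2α kinases, its phosphatase and eIF2B, 0 were called by edgeR or DESeq2 (2 at an unadjusted p under 0.05 in edgeR, median −0.05). The smallest p-values were those of Impact, an inhibitor of the kinase GCN2 (−0.30 ± 0.10, adjusted p = 0.134), and Eif2ak4, GCN2 itself (−0.22 ± 0.07, adjusted p = 0.151), whose groups did not overlap. Of the 16, 2 had groups apart and lower in LSD1i, against 3.46% of all tested genes, and 0 higher, against 4.41%. Of 20 tested genes related to ATF4 and CHOP, edgeR called 0 (5 at an unadjusted p under 0.05, median −0.02) and DESeq2 called 3, Ndrg1, Stc2 and Cth, against 4.85% of all genes. In edgeR Ndrg1, a stress and hypoxia gene, was at 0.99 ± 0.24 (adjusted p = 0.0506), Stc2, a secreted glycoprotein, at −0.41 ± 0.11 (adjusted p = 0.0587) and Cth, which makes cysteine, at −0.47 ± 0.14 (adjusted p = 0.106). Ndrg1 was called by edgeR without NT 1 (adjusted p = 0.00673) or without LSD1i 2 (0.0394), and in replicates 3 to 5 alone (0.0378), and its adjusted p was up to 0.137 with another library left out. Of 19 genes for endoplasmic reticulum chaperones and the unfolded protein response, 0 were called by edgeR or DESeq2 (2 at an unadjusted p under 0.05 in edgeR) and 17 were below 0 (median −0.14), with Sel1l, a component of protein disposal, at −0.32 ± 0.12 (adjusted p = 0.209) and the chaperone Hyou1 at −0.25 ± 0.09 (adjusted p = 0.225). The other 14 cytosolic synthetases had 0 calls and 12 fold changes below 0 (median −0.13, Kars −0.14 ± 0.08 and Lars −0.16 ± 0.10), and the 17 mitochondrial synthetases had 0 calls and 11 below 0 (median −0.02, Mars2 −0.34 ± 0.18 and Rars2 −0.16 ± 0.10). DESeq2 called 0 of both lists, and 0 reached an unadjusted p under 0.05 in edgeR.

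Calls were found among the other amino acid transporters, where 1 of 20 tested genes rose and 2 fell, against 2.15% and 1.16% of all tested genes, and 17 were below 0 (median −0.12). Slc16a10, which carries aromatic amino acids, had 18.5, 22.3, 23.8, 24.8 and 18.6 CPM across NT 1 to NT 5, and 11.6, 16.6, 15.3 and 9.30 CPM across LSD1i 1 to LSD1i 4 (−0.71 ± 0.17, edgeR adjusted p = 0.048), and every LSD1i value was below every NT value. Of the 20 genes, 2 had groups apart in this direction and 1 in the other, against 3.46% and 4.41% of all tested genes. Slc43a3, of the family of the leucine carriers LAT3 and LAT4 and itself known as a purine carrier, fell from 66.1 ± 6.77 CPM in NT (SD, n = 5) to 49.6 ± 4.36 in LSD1i (n = 4) (−0.42 ± 0.10, edgeR adjusted p = 0.042). Slc7a7, a chain of the y+L transporter for basic amino acids, rose from 0.677 ± 0.203 CPM in NT (SD, n = 5) to 1.49 ± 0.187 in LSD1i (n = 4), a low level (1.14 ± 0.24, edgeR adjusted p = 0.0223). With raw counts and the set term none of the 3 passed (adjusted p = 0.0926, 0.113 and 0.061), and leaving out 1 library took their adjusted p as high as 0.161, 0.147 and 0.0833. Slc16a10 was called only without NT 1, NT 5 or LSD1i 2, Slc43a3 only without NT 1, and Slc7a7 was not called without NT 3, NT 4, LSD1i 1 or LSD1i 3. Of 30 tested enzymes of one-carbon, glutamine, proline and methionine metabolism 0 were called by edgeR or DESeq2 and 0 reached an unadjusted p under 0.05 in edgeR (median −0.05), with Got1, an aspartate aminotransferase, at 0.15 ± 0.08 (adjusted p = 0.41). Of 27 genes that signal amino acids to mTORC1 0 were called by edgeR or DESeq2 (1 at an unadjusted p under 0.05 in edgeR, median −0.05), with Sesn1, a relative of Sesn2, at −0.33 ± 0.10 (adjusted p = 0.108) and Lamtor2, a subunit of the Ragulator complex, at 0.19 ± 0.09 (adjusted p = 0.386). Of the 13 T cell identity genes edgeR called 1, Cd8a, which rose (0.38 ± 0.08, adjusted p = 0.0266), against 2.15% of all tested genes, and 0 fell (5 at an unadjusted p under 0.05, median 0.05). DESeq2 called 3, Cd8a, Cd8b1 and Cd247, against 4.85% of all genes. The edgeR call was lost with raw counts and the set term (adjusted p = 0.126) and without NT 2, NT 3, NT 4, LSD1i 1, LSD1i 2 or LSD1i 4 (adjusted p up to 0.101). Of the 5 tested markers of other cells 0 were called by edgeR or DESeq2, and 2 reached an unadjusted p under 0.05 in edgeR.

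**Figure D5:**
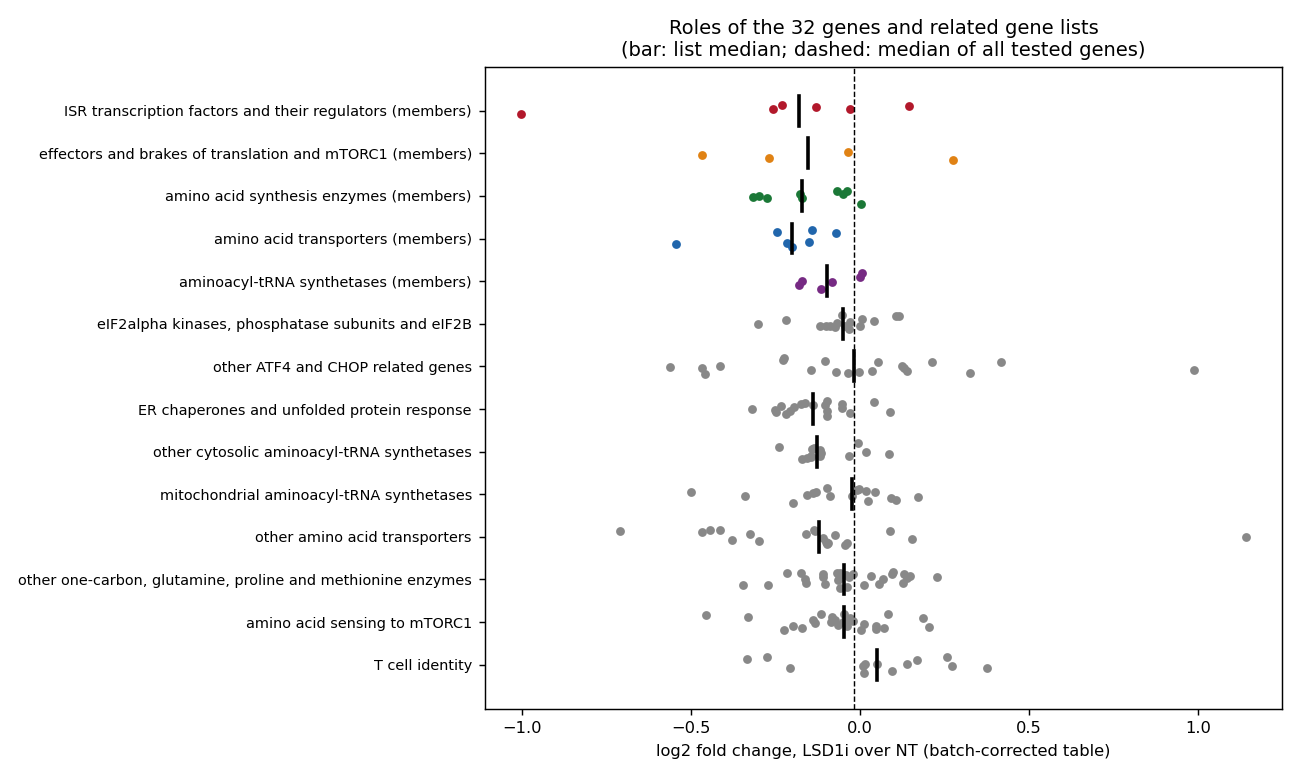
Log2 fold change of LSD1i over NT in the batch-corrected table for each tested gene (points) of the 5 roles of the 32 genes and of 9 related lists, with a black bar at each list's median and a dashed line at the median of all tested genes (−0.02). The medians of the 5 roles lie between −0.20 and −0.10, and that of T cell identity lies at 0.05.

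The members with the core TGATGNAA before their start and those without it had 7 of 8 and 16 of 19 fold changes below 0, with median log2 fold changes of −0.25 and −0.14. Between the replicate sets their medians were −0.34 and −0.03. No test was made of either difference.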

How the data were processed

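The authors deposited a table of raw counts per gene, a table of batch-corrected counts, which are estimated counts rounded to whole numbers, and a comparison table with log2 fold changes, F scores and p-values. STAR, featureCounts, edgeR and mm9 are named, without versions, in the submitters' processing notes, and the sources used here do not state the method of batch correction. The raw and batch-corrected columns were matched by their genes at 0: each raw library had exactly 1 partner with 0 genes at 0 in only one of the tables (next best at least 1336), and 4 of the 9 pairs carry opposite group names. The batch-corrected table and its names were used for the main test, and the raw names as an alternative. Under the batch-corrected names Trpm6 lay at 0 to 0.222 CPM in NT and 19.2 to 23.6 CPM in LSD1i, and Gfi1 at 116 to 144 and 286 to 361 CPM, which describes the split and did not decide the names.

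Batch-corrected counts were filtered with filterByExpr, scaled by TMM and tested with edgeR 4.0.16 (quasi-likelihood, Benjamini-Hochberg over 11981 genes, threshold 0.05). A correction made with the groups known can make spreads too small. The 2 sets of replicates were read from the ratio of the tables, which correlated at 0.755 or more within sets and at −0.790 or less between them over 9618 genes. The labels do not say that replicates came from separate cultures or animals, so the p-values rest on library-to-library spread, which may be technical. Alternatives were raw counts, a set term, a replicate block, DESeq2, other scaling, no filter and leaving out each library. The scripts were tested on simulated data. Named genes are the 2 with the smallest p in each role, Atf4, Ddit3, Asns, Slc7a11, Slc7a5 and the 3 with the largest difference between sets, with others given in groups. The members and lists were chosen with earlier results of these data known. Promoter stretches come from RefSeq (GRCm38.p6), another build than the counts. Library totals were 15163983 to 29245278 raw reads, and counting error at a gene's lowest count was, among the 32, largest for Slc7a11, 14.0% at 51 reads.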

Additional observations from a re-analysis of the deposited data

Results flagged for a closer look

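Among 64 sets of values (32 genes in 2 groups), 2 had a library far from the others of its group by Dixon's test, about what chance gives at 1 in 20. Nupr1 in LSD1i 2 was at 7.89 CPM, the highest of the 4 LSD1i libraries, with the other 3 between 4.77 and 5.27 CPM. Slc7a5 in LSD1i 2 was at 349.6 CPM, with the other 3 LSD1i libraries between 281.7 and 289.7 CPM.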

How the results depend on the processing

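The count of genes called over the whole table, 397 in the batch-corrected table, was 0 with raw counts as named, 84 with raw counts renamed and no set term, 220 with the set term, 117 in replicates 3 to 5 alone, 8 in replicates 1 and 2 alone, 656 with DESeq2, and 219 to 432 with 1 library left out. It moved by over 1.5 times without LSD1i 1 (228), LSD1i 3 (251) or LSD1i 4 (219). The cause was not tested. Of the 32 genes 0 were called, except that Nupr1 alone was called (1 gene) with DESeq2, with either replicate block, and without NT 1 or NT 5 (0 to 1 with 1 library left out). The replicate block gave Nupr1 −1.29 (edgeR adjusted p = 0.0124) in raw counts and −1.13 (0.0202) in batch-corrected counts, and called 352 and 326 of all genes. NT 5 has no LSD1i library of its number, so the block leaves NT 5 out of the fold change. The block and the fit without NT 5, where Nupr1 was at −1.15, are therefore not separate checks. The block also called Ndrg1 (0.0293 and 0.0209) and, in raw counts, Cth (0.0259). Same-numbered libraries did not deviate together (r = −0.09, 0.24, 0.09 and −0.30 in batch-corrected counts, 0 of 4 with their own number as best partner). In raw counts r was 0.56, 0.71, 0.65 and 0.46, where same-numbered libraries also share a set. Once the sets are corrected the correlations are not all over 0.1, so the numbers are not taken to pair them. The median log2 fold change of the 32 stayed below 0 in every setting run, from −0.19 to −0.02, and −0.19 to −0.10 with 1 library left out. The count of genes that differed between replicate sets, 16, was 6 with NT libraries only and 14 to 18 with 1 library left out, against 38.7%, 12.7% and 29.3% to 45.6% of all tested genes. At the lowest counts, counting error alone was 13.1% for Nupr1 (LSD1i 1) and 14.0% for Slc7a11 (LSD1i 3). Their coefficients of variation were larger, 26.2% and 24.0% in LSD1i and 38.1% and 24.8% in NT.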
